A study of Mus musculus with 16 samples.

Results

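The genes described here are those placed on mouse chromosomes 12 and 15 that were read at a mean of 8 or more counts per 1e6 (CPM) over 16 RNA sequencing libraries. On chromosome 12, 386 of 1137 placed genes reached that level, and on chromosome 15, 457 of 1175. These 843 members are compared with the 9867 genes of the other autosomes at the same level, out of 36528 gene identifiers in all. The chromosomes were picked because their genes stood higher in one tumour genotype than in the other, so the values behind that choice are given below as a description, with no test. At the threshold, Clba1 (8.08 CPM) was the lowest member on chromosome 12 and Wdr25 (7.95 CPM) the highest gene left out. On chromosome 15 the corresponding genes were Gm35339 (8.04 CPM) and Trmt12 (7.91 CPM).

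The libraries came from cells of mouse intestinal tumours of 2 genotypes, AKVPL and AKVPSL, sorted by flow cytometry into GFP+ and GFP- fractions, with 4 libraries for each of the 4 combinations. The design text names the fractions Lgr5+ and Lgr5-, and GFP is taken here as a reporter of Lgr5, the receptor best known from crypt stem cells. The labels do not spell out the letters of the genotype names, which differ by the letter S, and all groups share the other letters. Age, the driver of the alleles, gating other than by GFP, and whether tumours came from 1 or more clones or were pooled are not given. Colon is named in all 16 titles, but the tissue field reads colon in AKVPSL GFP- replicate 1 alone and small intestine in the other 15. The labels do not state that replicates were separate animals, so p-values cover only the spread among libraries of a group, and some of it may be technical.

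When a cell gains a copy of a chromosome, the transcripts of most of its genes tend to rise together by about the ratio of the copies, along the whole chromosome and across unrelated functions. Chromosome gains of this kind are common in intestinal tumours and in cell cultures derived from them. Such a shift can be seen in RNA as a displaced median of a chromosome's genes, while single genes may still move for reasons of their own. DNA was not measured in these libraries, so every value below is an RNA level, and copy number itself remains unmeasured. For scale, 3 copies against 2 would be 0.58 on the log2 scale in a pure population.

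The depth behind these values was 10881115 to 41601600 counts per library. Chromosome 12 members took 2.74% to 3.61% of a library's counts and chromosome 15 members 4.54% to 6.21%. Lgr5, the gene of the sort, had a mean of 296.5 CPM in GFP+ and 65.7 in GFP- libraries of AKVPL (n = 4 each; SD 8.3 to 40.0 over the 4 groups of both genotypes). For AKVPSL the means were 269.8 and 67.7 CPM. Lgr5 lies on neither chromosome.

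Promoters were matched in the RefSeq table (GRCm38.p6, 250 bases before to 50 after the start of each gene) for 337 members on chromosome 12 and 248 on chromosome 15. The 6 shown, 3 from each chromosome, were chosen because their genes carry the results below: Max, Eif2s1, Cct5 and Ncaph2 were higher in AKVPSL libraries of both sorts, and Apob and Osmr went the other way. Capitals mark exact matches on either strand to the E-box CACGTG, the CCAAT box, the GC box GGGCGG and the TATA box TATAAA, which do not overlap in these windows.
Max promoter: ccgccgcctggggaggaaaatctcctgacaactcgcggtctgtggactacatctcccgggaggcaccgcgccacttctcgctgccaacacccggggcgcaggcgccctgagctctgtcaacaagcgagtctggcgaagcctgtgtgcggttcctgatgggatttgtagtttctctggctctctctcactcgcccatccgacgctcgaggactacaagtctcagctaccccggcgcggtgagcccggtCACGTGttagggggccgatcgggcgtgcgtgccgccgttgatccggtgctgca
Eif2s1 promoter: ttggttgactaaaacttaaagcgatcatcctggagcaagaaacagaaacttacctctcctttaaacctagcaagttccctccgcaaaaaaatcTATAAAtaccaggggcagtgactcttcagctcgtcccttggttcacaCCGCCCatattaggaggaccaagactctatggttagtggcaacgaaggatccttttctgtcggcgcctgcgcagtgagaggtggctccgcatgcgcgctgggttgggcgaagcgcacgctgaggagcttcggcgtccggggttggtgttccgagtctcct
Apob promoter: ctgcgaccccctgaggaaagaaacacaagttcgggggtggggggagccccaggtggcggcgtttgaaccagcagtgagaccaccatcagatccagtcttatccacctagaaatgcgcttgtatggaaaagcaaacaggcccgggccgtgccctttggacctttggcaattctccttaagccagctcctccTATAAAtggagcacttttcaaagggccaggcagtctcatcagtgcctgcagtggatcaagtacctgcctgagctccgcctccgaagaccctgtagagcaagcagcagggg
Cct5 promoter: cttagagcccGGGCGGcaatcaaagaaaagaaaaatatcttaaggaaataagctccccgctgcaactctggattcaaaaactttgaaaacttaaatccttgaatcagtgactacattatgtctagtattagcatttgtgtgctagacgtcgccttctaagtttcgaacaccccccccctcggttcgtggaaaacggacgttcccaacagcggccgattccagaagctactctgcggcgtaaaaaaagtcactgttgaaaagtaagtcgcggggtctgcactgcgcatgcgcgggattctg
Ncaph2 promoter: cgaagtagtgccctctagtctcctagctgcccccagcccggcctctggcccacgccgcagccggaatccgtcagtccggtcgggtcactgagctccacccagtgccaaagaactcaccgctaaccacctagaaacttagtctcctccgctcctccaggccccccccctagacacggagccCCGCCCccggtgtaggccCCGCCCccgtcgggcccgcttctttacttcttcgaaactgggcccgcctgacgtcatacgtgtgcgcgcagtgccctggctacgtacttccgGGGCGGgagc
Osmr promoter: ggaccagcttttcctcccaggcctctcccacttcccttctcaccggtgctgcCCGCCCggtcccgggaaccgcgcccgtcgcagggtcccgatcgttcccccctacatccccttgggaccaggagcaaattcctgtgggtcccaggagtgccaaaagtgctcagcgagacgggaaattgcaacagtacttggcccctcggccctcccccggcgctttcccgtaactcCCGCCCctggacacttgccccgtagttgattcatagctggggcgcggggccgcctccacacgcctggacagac
Each is written 5′ to 3′ on the strand of its gene. Max lies on the minus strand (chr12:76962199-76962498), Eif2s1 on the plus strand (chr12:78861822-78862121), Apob on the plus strand (chr12:7977427-7977726), Cct5 on the minus strand (chr15:31601797-31602096), Ncaph2 on the plus strand (chr15:89355469-89355768) and Osmr on the minus strand (chr15:6874264-6874563). The Max window held 1 E-box, Ncaph2 held 3 GC boxes and Osmr 2, Cct5 held 1 GC box, Eif2s1 held a GC box and a TATA box, and Apob held a TATA box.

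Members did not stand out by these letters. An E-box was found in 8.9% of matched chromosome 12 promoters and 9.27% of chromosome 15 promoters, against 10.6% of 7907 promoters of other autosomal genes at the same level and 7.24% of all 27025 promoters. The CCAAT box was in 36.2% and 39.9% (others at the same level 37.9%, all 37.9%), the GC box in 65.3% and 73.8% (66.7%, 35.9%), and the TATA box in 5.93% and 4.84% (6.93%, 14.2%). The 23 chromosome 15 members with an E-box had a median relative difference of 0.72 in GFP+ and 0.75 in GFP- cells, against 0.43 and 0.38 without one. The 30 on chromosome 12 had 0.45 and 0.34, against 0.35 and 0.38 without one. In the same order, chromosome 15 members with a TATA box had 0.25 and 0.18, against 0.47 and 0.39. On chromosome 12 these were 0.29 and 0.24, against 0.37 and 0.38. The GC box gave 0.46 and 0.35 against 0.43 and 0.49 on chromosome 15. On chromosome 12 it gave 0.35 and 0.32 against 0.39 and 0.52. The CCAAT box gave 0.5 and 0.39 against 0.42 and 0.39, and 0.35 and 0.33 against 0.4 and 0.38. None of these medians was tested. These are descriptions of sequence in a fixed window, not of binding.

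Both chromosomes stood higher in AKVPSL than in AKVPL libraries, in both sorts. Relative to the other autosomes, the median log2 difference of chromosome 12 members was 0.37 in GFP+ and 0.37 in GFP- cells, and that of chromosome 15 members was 0.41 and 0.37. The other autosomal genes themselves had medians of 0.02 (GFP+) and 0.11 (GFP-), which are subtracted in these values. Above that reference lay 311 of 386 chromosome 12 members in GFP+ cells and 280 in GFP- cells, and 352 and 323 of 457 on chromosome 15. The middle of the distribution was narrow next to its tails: quartiles ran from 0.12 to 0.64 on chromosome 12 and from 0.06 to 0.72 on chromosome 15 in GFP+ cells. In GFP- cells they ran from -0.07 to 0.81 and from -0.10 to 0.81.

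Among the 19 autosomes, chromosomes 15 and 12 ranked 3 and 4 in GFP+ cells, and 4 and 3 in GFP- cells. Chromosomes 5 (0.56 and 0.54) and 18 (0.55 and 0.53) had higher medians, and chromosomes 6, 19 and 8 followed with 0.19 to 0.34. Since these 5 chromosomes are part of the reference, leaving them out raised the medians of chromosome 12 to 0.47 and 0.48, and those of chromosome 15 to 0.52 and 0.47. The remaining 12 autosomes had medians from -0.22 to 0.06. The plot of all autosomes shows this split.

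**Figure D1:**
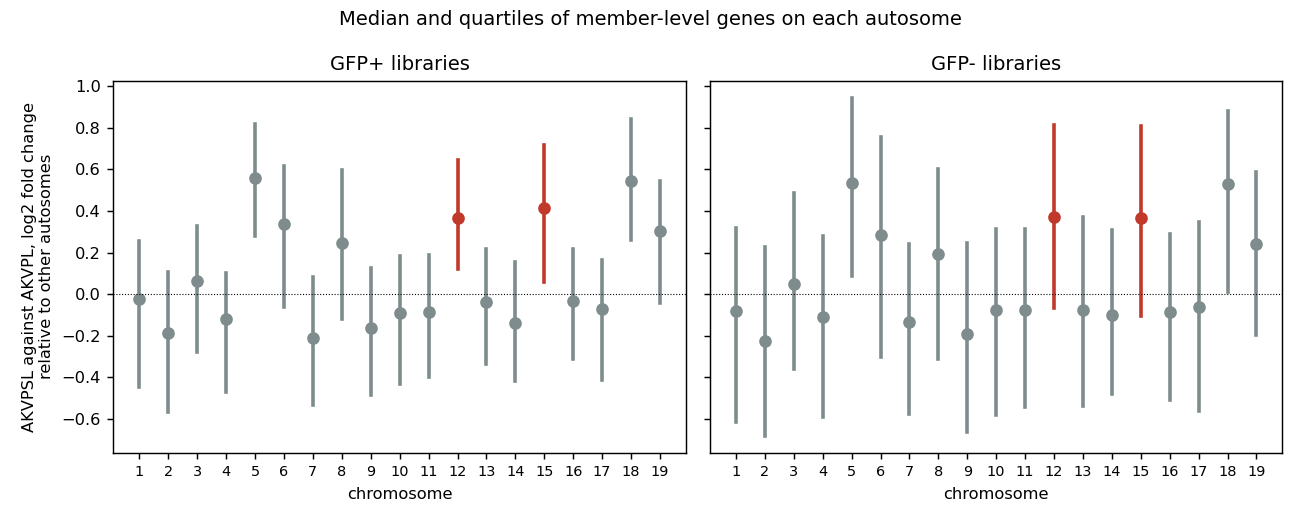
Each of 19 autosomes (x axis) is drawn by the median (point) and quartiles (bar) of its genes at 8 CPM or more, as the log2 difference of AKVPSL against AKVPL relative to the median of the autosomes other than 12 and 15 (y axis), for GFP+ (left) and GFP- (right) libraries. Chromosomes 12 and 15 (red) sit at 0.37 to 0.41, below chromosomes 5 and 18 and above most others.

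The single libraries divided by genotype. Each library's log2 CPM was set against the mean of the AKVPL libraries of its sort (the other 3 where it was one of them), and the median over members was taken relative to the same median over the other autosomes. On chromosome 12 the AKVPSL GFP+ libraries were at 0.345, 0.344, 0.392 and 0.347, and the AKVPSL GFP- libraries at 0.372, 0.408, 0.375 and 0.358. The AKVPL libraries of chromosome 12 lay between -0.053 and 0.061, near 0 as the construction gives. On chromosome 15 the AKVPSL GFP+ libraries were at 0.431, 0.376, 0.410 and 0.411, the AKVPSL GFP- libraries at 0.355, 0.317, 0.342 and 0.425, and the AKVPL libraries between -0.028 and 0.019. No AKVPSL library overlapped an AKVPL library on either chromosome, and no AKVPSL library lacked the shift. The SD over 4 libraries was 0.014 to 0.05.

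**Figure D2:**
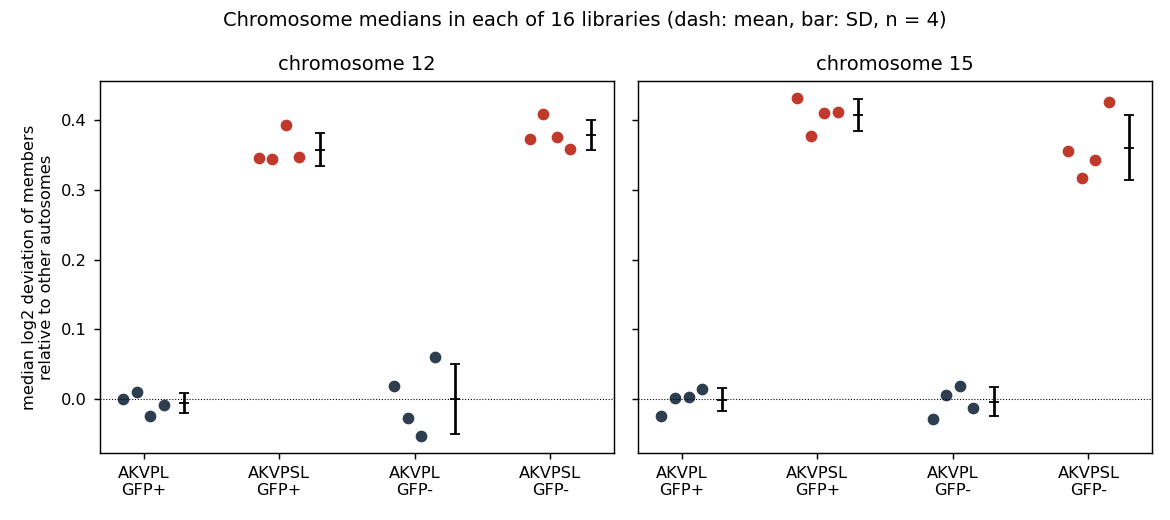
Each dot is 1 of 16 libraries: the median over members of chromosome 12 (left) or 15 (right) of the log2 deviation from the AKVPL mean of the same sort, relative to the other autosomes (y axis), with mean and SD of 4 libraries beside the dots. AKVPSL libraries (red) lie at 0.317 to 0.431 and AKVPL libraries (dark) at -0.053 to 0.061.

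Counted gene by gene with edgeR (quasi-likelihood test, Benjamini-Hochberg adjusted p under 0.05 over 18072 genes), 229 chromosome 12 members were called higher and 36 lower in AKVPSL GFP+ cells. On chromosome 15, 280 were higher and 59 lower. Over all genes tested, 24.9% were called higher and 28.1% lower in that comparison, 53.0% either way. In GFP- cells, 238 members were higher and 44 lower on chromosome 12, and 277 higher and 73 lower on chromosome 15, where 32.0% of all genes were higher and 30.7% lower, 62.7% either way. All 4 AKVPSL libraries lay above all 4 AKVPL libraries for 221 chromosome 12 and 276 chromosome 15 members in GFP+ cells (25.0% of all genes), and for 217 and 246 in GFP- cells (27.3% of all genes). All 4 lay below for 30 and 58 in GFP+ (26.3%), and 40 and 61 in GFP- (25.9%). The rule used these comparisons, so nothing is read from the counts. Higher in both sorts were 189 of 386 members (49.0%) and 234 of 457 (51.2%), against 22.6% of the other autosomal genes. Lower in both were 28 (7.25%) and 47 (10.3%), against 1775 of the 9867 other autosomal genes. Prkar2b and Tmed8 on chromosome 12, and Mtss1, Pmm1, Upk3a and Prr13 on chromosome 15, were called in opposite directions in the 2 sorts, as were 153 of those other genes, and are named here after their values were seen.

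The counts depend on how libraries are scaled more than the relative medians do. With libraries scaled on a list of epithelial genes in place of all genes, called epithelial scaling below, the median of all genes moved by -0.13 (AKVPSL against AKVPL in GFP+), -0.35 (the same in GFP-), -0.39 (GFP+ against GFP- in AKVPL) and -0.17 (GFP+ against GFP- in AKVPSL). The GFP- genotype counts were then 154 higher and 95 lower on chromosome 12, and 175 and 111 on chromosome 15. Differences relative to the other autosomes are not touched by such a shift.

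Other cell types moved with genotype and sort in the same libraries. The summed CPM of 16 leukocyte markers ranged from 4578 to 7887 in AKVPL GFP-, 831 to 3725 in AKVPSL GFP-, 445 to 1236 in AKVPL GFP+ and 59.1 to 312 in AKVPSL GFP+ libraries. For 14 fibroblast markers the ranges were 5605 to 11333, 1865 to 3268, 647 to 1317 and 248 to 1189 in the same order. The 12 endothelial markers ran 527 to 996, 176 to 549.9, 103 to 153 and 160.0 to 201, and the 8 mast cell markers 354 to 706, 29.7 to 134, 65.3 to 79.7 and 2.9 to 9.0. Every marker of these 4 lists had a mean above 0 in each group. The 21 epithelial markers summed to 7735 to 8739, 9227 to 9883, 9079 to 10965 and 9593 to 10056 CPM, with Cdx1 at 0 in both GFP- groups. In such bulk samples, fewer cells of a type and less RNA per cell cannot be told apart. The part of these cells in the values below was not tested.

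Members were sorted by their difference between GFP+ and GFP- cells, a measure the choice of chromosomes did not use. The 232 chromosome 12 and 266 chromosome 15 members that differed by under 0.5 log2 between sorts in both genotypes were 0.36 and 0.40 above other autosomal genes of the same class in GFP+ cells, and 0.42 and 0.36 above them in GFP- cells. Members at least 0.5 higher in GFP+ cells in both genotypes (15 and 29) were 0.55 and 0.38 above their class in GFP+, and 0.45 and 0.43 in GFP-. Members at least 2-fold lower in GFP+ cells in both genotypes (11 and 22) did not share the shift in all cases: they were -0.18 and -0.15 relative to the same class in GFP- cells, and 0.36 and -0.46 in GFP+ cells. Their own medians of AKVPSL against AKVPL were -0.94 to -1.77, and this class elsewhere was at -1.29 to -1.30. It includes Csf2rb, Dcstamp, Pld4 and Ltbp2, and with 11 and 22 members its medians are coarse. Level made little difference: in 3 classes of mean CPM, bounded at 29.5 and 73.3 CPM, the medians were 0.31 to 0.42 above genes of the same class.

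Along each chromosome the difference was above 0 in most windows. In windows of 10 Mb, chromosome 12 had 12 of 12 medians above 0 in both sorts, from 0.25 to 0.78 in GFP+ and from 0.22 to 0.76 in GFP- cells. Chromosome 15 had 11 of 11 above 0 in GFP+ cells (0.15 to 0.62) and 10 of 11 in GFP- cells. The exception was the window from 20 to 30 Mb, with 8 members and a median of -0.27 in GFP- and 0.15 in GFP+ cells. In windows with 20 or more members the range was 0.25 to 0.51 and 0.22 to 0.74 on chromosome 12, and 0.24 to 0.62 and 0.28 to 0.58 on chromosome 15. The members near the ends, from 3.2 to 10 Mb and from 110 to 119.4 Mb on chromosome 12, had medians of 0.36 and 0.38 in GFP+ cells. In windows of 5 Mb, 19 of 21 chromosome 12 medians were above 0 in GFP+ and 20 of 21 in GFP- cells, and 18 of 18 and 17 of 18 on chromosome 15. Those below 0 had 7 to 9 members: chromosome 12 from 10 to 15 Mb (-0.04 in GFP+ and -0.51 in GFP-) and from 25 to 30 Mb (-0.21 in GFP+), and chromosome 15 from 25 to 30 Mb (-0.27 in GFP-). The highest was chromosome 15 from 0 to 5 Mb, at 1.55 in GFP+ and 1.16 in GFP-. It had 6 members, and 6 were called higher in each sort.

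No break point stood out among splits that left at least 15 members on each side. A shorter segment, such as the 6 members from 0 to 5 Mb of chromosome 15, could not be found this way. The split that best divided chromosome 15 fell between Cyrib and Asap1 at 64.1 Mb in both sorts. The 127 members before it had medians of 0.57 (GFP+) and 0.50 (GFP-), and the 330 after it 0.36 and 0.32. It removed 1.22% and 0.78% of the absolute deviation, and both medians on each side were above 0. Of the 8 AKVPSL libraries taken singly, 7 placed the split there and GFP+ replicate 3 placed it at 73.7 Mb. On chromosome 12 the best split lay at 81.6 Mb in GFP+ cells (0.42 before, 0.28 after) and at 100.3 Mb in GFP- cells (0.47 and 0.28), and removed 0.97% and 0.75%. The single AKVPSL libraries placed it at 79.2, 81.6, 86.1 and 86.1 Mb in GFP+ cells, and at 112.7, 112.6, 112.7 and 79.2 Mb in GFP- cells. The 24 and 28 members past the split had medians of -0.08 in GFP- replicate 1 and 0.003 in GFP- replicate 2. These positions were chosen from the values and have no test.

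**Figure D3:**
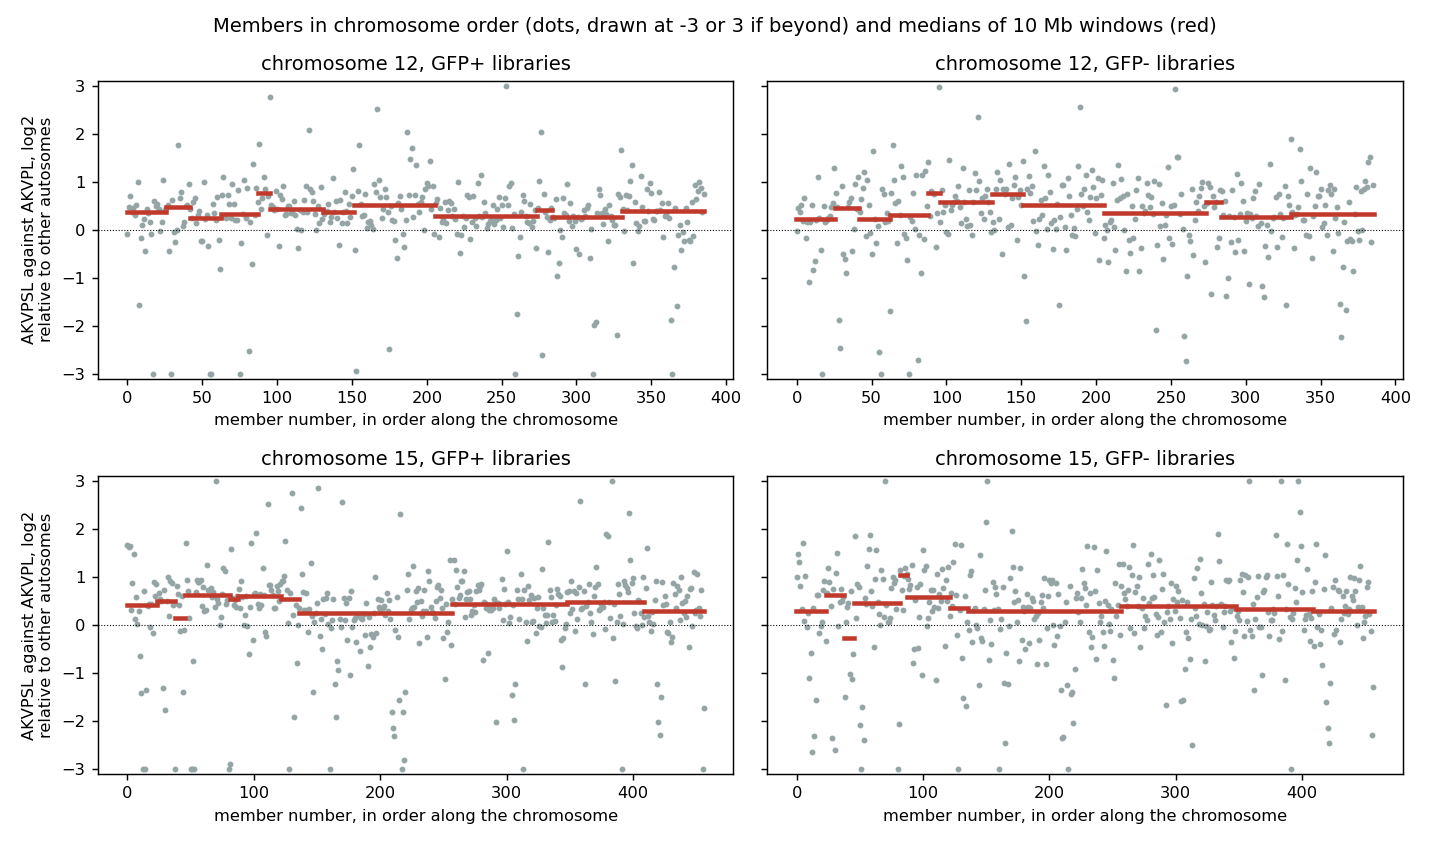
Members of chromosome 12 (top) and 15 (bottom) in their order along the chromosome (x axis) with the log2 difference of AKVPSL against AKVPL relative to the other autosomes (y axis), in GFP+ (left) and GFP- (right) libraries. Grey dots are genes, drawn at -3 or 3 if beyond, and red lines are medians of 10 Mb windows, which lie above 0 except 1 window of chromosome 15 in GFP- cells.

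Genes of growth and the cell cycle were taken first among the members, from a list of 34 genes of which 33 reached the level (Gen1 did not). On chromosome 15, 15 of 18 were called higher and 0 lower in AKVPSL GFP+ cells, and 16 of 18 and 0 in GFP- cells, with median relative differences of 0.61 and 0.79. Of all chromosome 15 members, 61.3% and 60.6% were called higher. On chromosome 12, 9 of 15 were higher and 2 lower (Mycn and Id2) in GFP+, and 9 and 1 (Mycn) in GFP-, with medians of 0.32 and 0.24, where 59.3% and 61.7% of all chromosome 12 members were higher. With epithelial scaling, 11 of 18 on chromosome 15 were higher in each sort and 0 lower, and on chromosome 12 it was 4 higher and 2 lower in GFP+, and 4 and 3 in GFP-.

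Myc, the transcription factor that drives growth programmes downstream of Wnt signalling, lies at 62.0 Mb of chromosome 15. Its CPM was 152, 161, 160.1 and 114 in the 4 AKVPL GFP+ libraries and 279.9, 335, 315 and 287 in AKVPSL GFP+. In GFP- cells it was 115, 121, 123 and 88.4 against 322, 362, 247 and 274. Every AKVPSL library was above every AKVPL library of its sort, and the log2 difference was 1.05 ± 0.14 (SE) in GFP+ and 1.42 ± 0.14 in GFP- cells. Pvt1, the long noncoding RNA gene next to Myc (62.0 Mb), was at 6.21, 7.61, 6.64 and 6.49 against 20.4, 21.4, 26.5 and 24.3 CPM in GFP+, and 7.48, 8.05, 8.12 and 9.74 against 22.1, 29.5, 37.4 and 25.5 in GFP-. Its difference was 1.78 ± 0.15 and 1.78 ± 0.16, beyond the 0.41 and 0.37 of its chromosome.

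Max, the partner with which Myc binds the E-box, lies on chromosome 12 (76.9 Mb) and has an E-box in the window printed above. It was at 48.9, 50.7, 49.9 and 49.6 CPM in AKVPL GFP+ against 79.4, 79.8, 86.7 and 86.2 in AKVPSL GFP+, and at 54.1, 54.1, 51.6 and 47.7 against 92.9, 94.6, 121 and 96.7 in GFP-. The groups did not overlap in either sort, with differences of 0.74 ± 0.09 and 0.96 ± 0.09. Mycn, a paralogue of Myc that is used mainly in development, went the other way: its CPM was 25.01, 16.7, 16.2 and 21.9 in AKVPL GFP+ against 1.26, 1.37, 1.97 and 2.38 in AKVPSL GFP+, a difference of -3.53 ± 0.23. In GFP- cells it was 13.2, 8.57, 8.51 and 9.57 against 1.54, 2.195, 1.99 and 2.14 (-2.35 ± 0.23). In AKVPL, Mycn was also higher in GFP+ than in GFP- cells, by 1.00 ± 0.21 (edgeR adjusted p = 0.000996).

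Cell division genes of both chromosomes were higher in AKVPSL cells. Rad21, a subunit of the cohesin ring that holds sister chromatids together, was at 269, 259, 224 and 237 CPM in AKVPL GFP+ and 485, 487, 489.9 and 423 in AKVPSL GFP+, a difference of 0.93 ± 0.10. In GFP- cells its values were 198, 175, 151 and 204 against 362, 343, 319 and 381, a difference of 0.95 ± 0.10. Ncaph2, a condensin II subunit whose promoter is printed above, was at 132, 135, 129 and 143 against 235, 227, 228 and 227 in GFP+, and 100.5, 112, 118 and 101 against 222, 184, 256 and 232 in GFP-. Its differences of 0.77 ± 0.09 and 1.05 ± 0.09 came with no overlap between genotypes. Rrm2, a subunit of the reductase that makes deoxyribonucleotides, was more scattered: 22.5, 19.6, 20.2 and 16.6 CPM in AKVPL GFP+ against 52.4, 56.4, 22.9 and 28.9 in AKVPSL GFP+, and 14.5, 15.8, 15.5 and 15.1 against 69.9, 55.4, 31.6 and 46.6 in GFP-. Its AKVPSL libraries spanned more than 2-fold in each sort and still lay above those of AKVPL (1.03 ± 0.26 and 1.74 ± 0.27).

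Racgap1 and Gtse1 differed between the sorts in AKVPL. Racgap1, which acts in cytokinesis, was at 70.9, 69.7, 49.9 and 69.9 CPM in AKVPL GFP+ and 28.02, 29.3, 23.9 and 21.1 in AKVPL GFP-, higher in GFP+ by 1.34 ± 0.14 (edgeR adjusted p = 1.92e-06). In AKVPSL it was at 147, 123, 108 and 106 in GFP+ and 103, 77.1, 75.9 and 91.1 in GFP-, and between genotypes it differed by 0.90 ± 0.14 in GFP+ and 1.76 ± 0.15 in GFP-. Gtse1, expressed in G2 and S phase, was at 16.8, 15.5, 11.6 and 18.8 in AKVPL GFP+ and 6.87, 5.74, 6.82 and 5.84 in AKVPL GFP-, a sort difference of 1.30 ± 0.19 (edgeR adjusted p = 4.34e-05). Its AKVPSL values were 29.04, 26.6, 21.7 and 20.5 in GFP+ and 24.3, 18.3, 12.8 and 15.5 in GFP-, with genotype differences of 0.65 ± 0.18 and 1.49 ± 0.19, of which the first was 0.49 and short of the threshold with epithelial scaling. Rad21 was higher in GFP+ cells by 0.44 ± 0.10 and 0.42 ± 0.10 (edgeR adjusted p = 0.00215 and 0.0023), but with epithelial scaling these were 0.05 and 0.25 and did not pass.

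**Figure D4:**
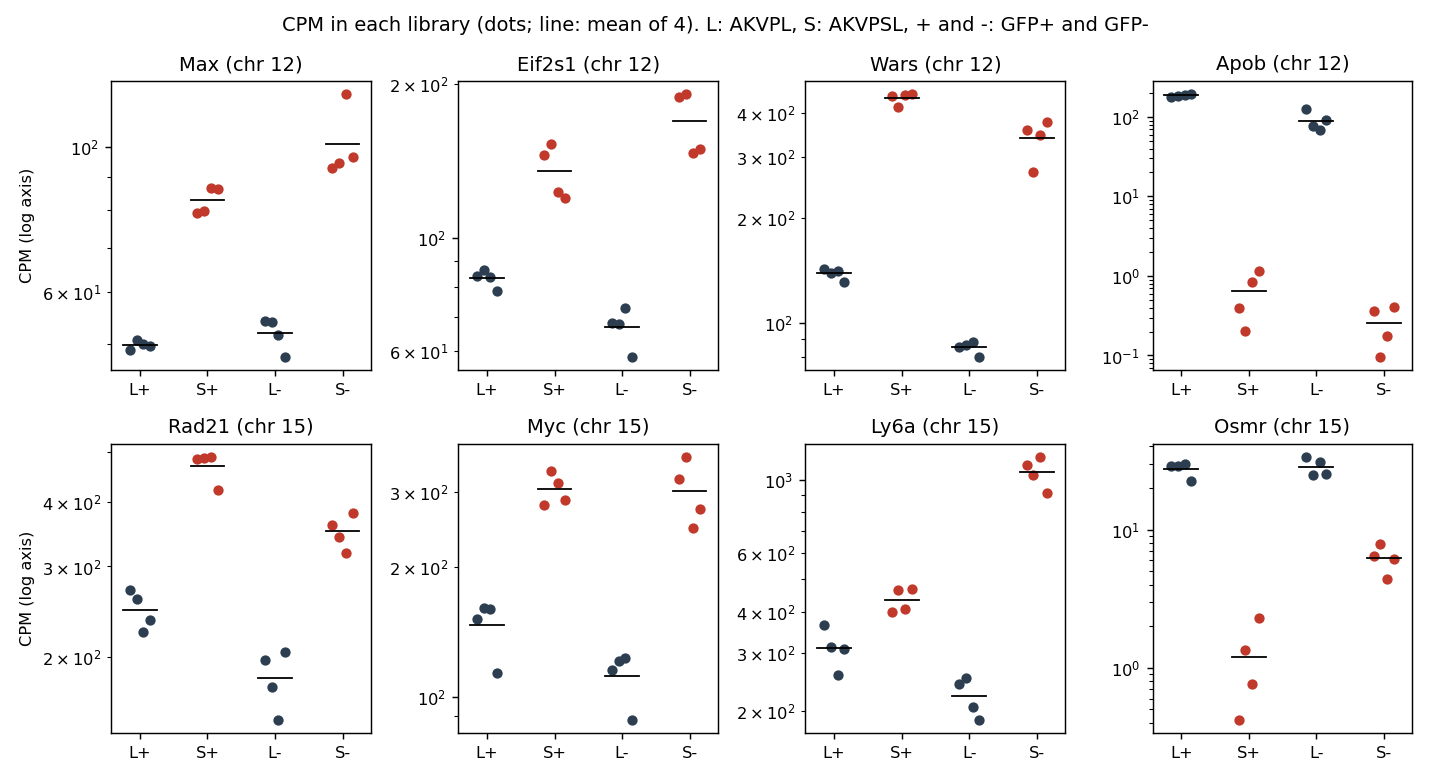
CPM (log axis, a range of its own in each panel) of 8 members in each library, for AKVPL (L, dark) and AKVPSL (S, red) in GFP+ and GFP- cells, with a line at the mean of 4. Max, Eif2s1, Wars, Rad21, Myc and Ly6a are higher in AKVPSL, and Apob and Osmr lower, with no overlap between genotypes within a sort.

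Genes of translation were nearly all called higher in AKVPSL on chromosome 15, and less evenly so on chromosome 12. On chromosome 15 all 15 listed members were called higher in AKVPSL GFP+ cells, and 14 of 15 in GFP- cells, with 0 lower in either. The median relative differences were 0.57 and 0.86. On chromosome 12, 3 of 6 members were higher in GFP+ and 5 of 6 in GFP-, 0 lower, with medians of 0.45 and 0.85 (Rps29 was under the level). Among all members, 61.3% and 60.6% were called higher on chromosome 15, and 59.3% and 61.7% on chromosome 12. Over all genes tested it was 24.9% and 32.0%. With epithelial scaling 13 and 14 of 15, and 3 and 4 of 6, were higher and 0 lower. The leukocyte and fibroblast sums given above were lower in the same AKVPSL GFP- libraries, and their part in these values was not tested.

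Subunits of eIF3, the complex that assembles the initiating ribosome, are given as examples picked with their values known. Eif3d of the same list, whose values are not printed, was also called higher in both sorts. Chromosome 15 members as a whole were not this alike. Their relative differences had an SD of 1.12 in GFP+ and 1.15 in GFP- cells, and 52.1% and 40.5% lay between 0.25 and 1. Eif3h was at 221, 239.9, 245 and 228 CPM in AKVPL GFP+ and 411, 413, 379 and 398 in AKVPSL GFP+, and at 191, 235, 235 and 195 against 437, 427, 483 and 454 in GFP- cells. Eif3e was at 117, 121, 111 and 108 against 181, 182, 156 and 171 in GFP+, and 97.7, 101, 108 and 99.4 against 189, 204, 163 and 171 in GFP-. Eif3l was at 244, 256, 246 and 242 against 373, 360.4, 338 and 345 in GFP+, and 195, 205, 225 and 183 against 370.3, 301, 342 and 366 in GFP-. The 3 lie at 43.3, 51.8 and 79.1 Mb, and all 8 AKVPSL libraries were above the 8 AKVPL libraries for each. The log2 differences were 0.78 ± 0.09, 0.59 ± 0.09 and 0.52 ± 0.09 for Eif3h, Eif3e and Eif3l in GFP+ cells, and 1.07 ± 0.09, 0.84 ± 0.09 and 0.77 ± 0.09 in GFP- cells.

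Eif4b, a helper of the initiation helicase near the far end of chromosome 15 (102.1 Mb), was at 451, 485, 457 and 432 CPM in AKVPL GFP+ against 785, 771, 969.9 and 895 in AKVPSL GFP+ (0.91 ± 0.12). In GFP- cells it was 381, 422, 395 and 431 against 587, 534, 749.7 and 787 (0.71 ± 0.12). Cct5, a subunit of the chaperonin that folds actin and tubulin and here listed with translation, was at 433, 462, 439 and 406 against 729.6, 730.4, 710.3 and 735 in GFP+, and 350.0, 414, 398 and 342 against 756, 579, 854 and 753 in GFP-. Its differences were 0.74 ± 0.10 and 0.97 ± 0.11, and its promoter is the fourth printed above. Rpl8, a protein of the large ribosomal subunit, was at 875, 974, 1032 and 951 against 1395, 1443, 1254 and 1457 in GFP+, and 873, 1014, 1044 and 798 against 1725, 1513, 2259 and 1849.5 in GFP- (0.53 ± 0.12 and 0.98 ± 0.12). Within AKVPSL, Rpl8 was lower in GFP+ than in GFP- cells, with a difference of -0.40 ± 0.12 (edgeR adjusted p = 0.00948).

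On chromosome 12, Eif2s1 encodes the alpha subunit of eIF2, whose phosphorylation slows translation under stress. It was at 84.2, 86.3, 83.6 and 78.5 CPM in AKVPL GFP+ and 146, 152, 123 and 119.7 in AKVPSL GFP+ (0.70 ± 0.11), and at 67.95, 67.6, 72.6 and 58.3 against 189, 191, 147 and 149.6 in GFP- cells (1.34 ± 0.11). Wars, the tryptophanyl tRNA synthetase, had a larger difference: 143, 139, 141 and 131 against 449, 417, 451 and 454 in GFP+ (1.68 ± 0.09), and 85.3, 86.5, 88.2 and 79.7 against 358, 271, 346 and 378 in GFP- (1.99 ± 0.10). That was 3.19-fold and 3.98-fold, well past the chromosome's median of 0.37 on the log2 scale.

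Between the sorts, translation genes did not move together. In AKVPL, 3 of 15 members on chromosome 15 were higher in GFP+ cells and 0 lower, and in AKVPSL 2 were higher and 6 lower. On chromosome 12 the counts were 2 and 1 of 6, and 1 and 4. Over all genes, 22.6% and 22.4% were called higher in GFP+ cells of AKVPL and AKVPSL, and 16.5% and 24.6% lower. With epithelial scaling the chromosome 15 counts were 0 higher and 5 lower in AKVPL, and 1 and 9 in AKVPSL.

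Protein folding and turnover genes were counted next. Of 11 on chromosome 12, 7 were higher in AKVPSL GFP+ and 9 in GFP- cells, 0 lower. Of 9 on chromosome 15, 7 and 6 were higher and Fbxo32 was lower in GFP-. Of all members, 59.3% and 61.7% were called higher on chromosome 12, and 61.3% and 60.6% on chromosome 15. With epithelial scaling, chromosome 12 had 5 and 7 higher, 0 and 1 lower, and chromosome 15 had 6 and 4 higher, 0 and 1 lower.

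The proteasome subunits Psma6 (core particle) and Psmc1 (regulatory particle) lie on chromosome 12. Psma6 was at 129.6, 124, 119.7 and 129.7 CPM in AKVPL GFP+ against 179, 176, 152 and 173 in AKVPSL GFP+, and at 109, 115, 131 and 96.6 against 217, 176, 264 and 212 in GFP-. Psmc1 was at 74.8, 68.95, 72.7 and 78.8 against 94.7, 96.3, 83.03 and 88.9 in GFP+, and 60.8, 69.7, 65.9 and 56.8 against 122, 103, 140.2 and 115 in GFP-. In both genes the GFP- difference (0.94 ± 0.11 and 0.92 ± 0.10) was above the GFP+ difference (0.44 ± 0.11 and 0.30 ± 0.10), and the latter for Psmc1 was 0.16 and short of the threshold with epithelial scaling. Sel1l, an adaptor of the ligase that clears misfolded proteins from the endoplasmic reticulum, had the reverse order: 90.96, 86.6, 83.4 and 91.8 against 399, 338, 379 and 359 in GFP+ (2.06 ± 0.10), and 101, 94.9, 92.2 and 109 against 216, 201, 165 and 208 in GFP- (0.99 ± 0.09). Within AKVPSL it was higher in GFP+ cells by 0.90 ± 0.09 (edgeR adjusted p = 1.43e-06).

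On chromosome 15, Ywhaz, a 14-3-3 protein that binds phosphorylated partners, was at 222, 228, 244 and 202 CPM in AKVPL GFP+ against 371, 405, 295 and 299 in AKVPSL GFP+, and at 223, 247, 259.6 and 192 against 598, 737, 508 and 359 in GFP- (0.61 ± 0.17 and 1.25 ± 0.17). The AKVPSL GFP- libraries of Ywhaz spread about 2-fold and still lay above those of AKVPL. Fkbp11, a prolyl isomerase of the endoplasmic reticulum, was at 18.6, 19.3, 23.4 and 22.1 against 86.9, 89.02, 62.2 and 77.8 in GFP+, and 17.3, 18.8, 23.5 and 15.4 against 84.9, 92.4, 63.1 and 56.8 in GFP- (1.92 ± 0.16 and 1.98 ± 0.17).

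Keratins and Ly6 proteins form clusters of related genes on chromosome 15, and reads shared between close paralogues in these clusters make single values less certain. Of 17 listed genes 9 reached the level, with 3 higher and 2 lower in AKVPSL GFP+, and 5 higher and 0 lower in GFP- (2 and 4, and 4 and 2, with epithelial scaling). Of all 457 chromosome 15 members, 280 were called higher and 59 lower in GFP+, and 277 and 73 in GFP-. Over all genes tested, 24.9% were higher and 28.1% lower in GFP+, and 32.0% and 30.7% in GFP-. The relative medians of the 9 genes were -0.15 and 0.71, against 0.41 and 0.37 for all members of their chromosome. With 9 genes these medians are coarse.

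Ly6a (Sca-1), a surface protein found on regenerating and fetal-like intestinal epithelium, was at 364, 313, 258 and 309 CPM in AKVPL GFP+ and 399, 465, 407 and 468 in AKVPSL GFP+ (0.48 ± 0.12). In GFP- cells it was 242, 252, 206 and 188 against 1109, 1034, 1173 and 913 (2.25 ± 0.12). The AKVPSL GFP- libraries were the highest group. Within AKVPSL, Ly6a was lower in GFP+ than in GFP- cells, with a difference of -1.28 ± 0.12 (edgeR adjusted p = 6.45e-07), while in AKVPL it was higher by 0.48 ± 0.12 (edgeR adjusted p = 0.00353), a call that ended with epithelial scaling (0.10). Ly6c1, its neighbour, which endothelial cells and leukocytes also express, was at 28.9, 24.7, 18.4 and 27.8 against 173, 204, 158 and 197 in GFP+, and 15.6, 20.4, 16.2 and 15.8 against 399, 401, 307 and 308 in GFP-. Its genotype differences were 2.87 ± 0.15 and 4.38 ± 0.16, and the sort difference within AKVPSL was -0.95 ± 0.14 (edgeR adjusted p = 4.11e-05), with 0.55 ± 0.15 in AKVPL (edgeR adjusted p = 0.00592, and 0.18 and not passing with epithelial scaling).

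Ly6d was the member of that cluster that was lower in AKVPSL GFP+ cells: 19.1, 21.5, 19.6 and 20.2 against 6.52, 7.703, 9.299 and 7.73 CPM (-1.36 ± 0.16). In GFP- cells the values 19.1, 31.95, 20.2 and 31.2 and 21.8, 23.1, 22.6 and 20.2 overlapped, and within AKVPSL the sort difference was -1.49 ± 0.16 (edgeR adjusted p = 2.36e-06). Krt7, a keratin of simple epithelium, was at 1333, 1508, 1345 and 1367 in AKVPL GFP- and 2484, 2265, 2688 and 2431 in AKVPSL GFP- (0.83 ± 0.09). In GFP+ cells its genotypes overlapped, at 1326, 1266, 1205 and 1156 and 1110.1, 1175, 1047 and 1158. It was lower in GFP+ cells within AKVPSL, with a difference of -1.14 ± 0.09 (edgeR adjusted p = 1.2e-07). Krt18, the member with the highest mean CPM on the chromosome, was lower in AKVPSL GFP+ (2758, 3009, 2830.2 and 3086) than in AKVPSL GFP- (3821, 4062, 3875 and 3529), by -0.39 ± 0.10 (edgeR adjusted p = 0.00531).

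Receptors, adhesion molecules and transcription factors of epithelium went both ways. On chromosome 12, 4 of 9 were higher and 1 lower in AKVPSL GFP+, and 4 and 2 in GFP-, with relative medians of -0.03 and 0.09. Of all chromosome 12 members, 59.3% were higher and 9.33% lower in GFP+, and 61.7% and 11.4% in GFP-. On chromosome 15, 3 of 15 were higher and 6 lower in GFP+, and 5 and 9 in GFP-, with relative medians of -0.11 and -0.59. With epithelial scaling the chromosome 15 counts were 2 and 6, and 2 and 9. This list stood below its chromosome in both sorts, as the plot of role lists shows.

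**Figure D5:**
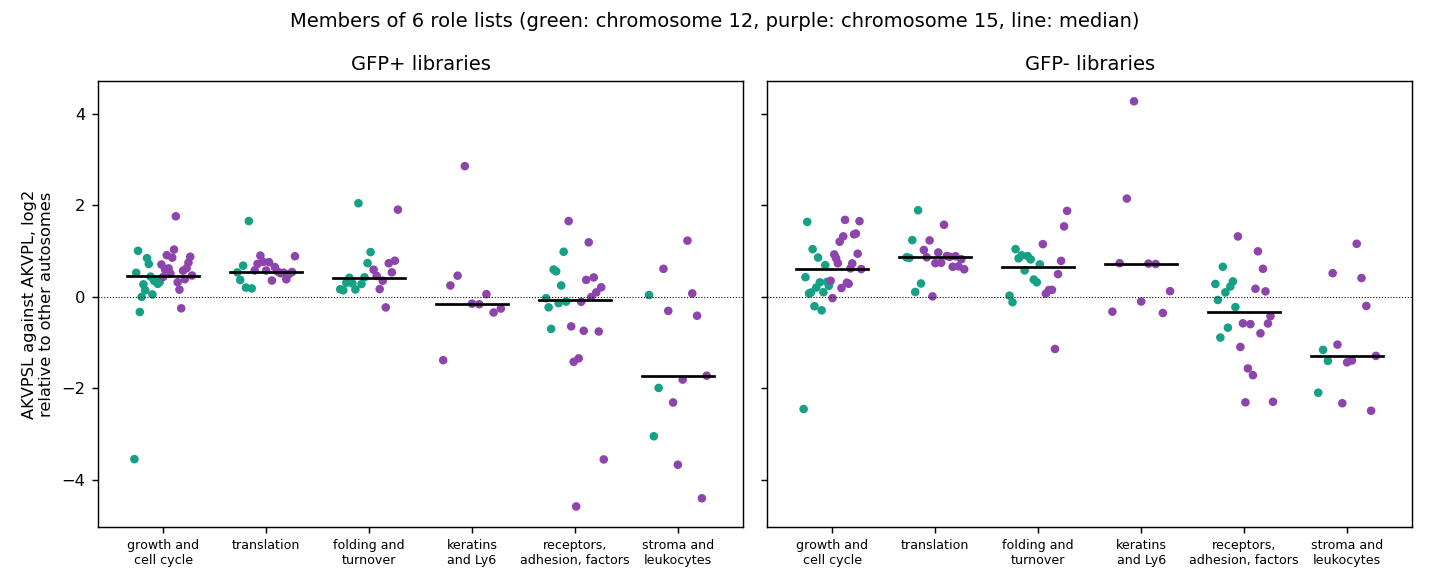
Members of 6 lists by role (x axis), chromosome 12 in green and chromosome 15 in purple, with the log2 difference of AKVPSL against AKVPL relative to the other autosomes (y axis) in GFP+ (left) and GFP- (right) libraries, and a line at each list's median. Translation genes lie above 0 (median 0.55 and 0.86 over both chromosomes), and stroma and leukocyte genes mostly below (-1.72 and -1.29).

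Osmr and Lifr, receptor subunits for cytokines of the interleukin 6 family, were picked with their values known. Osmr, the oncostatin M receptor, lies near the start of chromosome 15 (6.8 Mb) and was at 28.7, 28.7, 29.6 and 22.4 CPM in AKVPL GFP+ against 0.421, 1.34, 0.767 and 2.302 in AKVPSL GFP+ (-4.56 ± 0.34). In GFP- cells it was 33.5, 24.7, 30.8 and 25.1 against 6.46, 7.92, 4.39 and 6.09 (-2.20 ± 0.30). Lifr, the leukaemia inhibitory factor receptor at 7.1 Mb, was at 35.04, 35.2, 40.3 and 32.8 against 9.59, 12.4, 19.5 and 15.9 in GFP+ (-1.32 ± 0.18), and 29.5, 31.3, 31.5 and 35.5 against 8.82, 10.6, 14.7 and 12.3 in GFP- (-1.46 ± 0.18). Both genes lie in a 10 Mb window of 24 members whose median was 0.41 in GFP+ and 0.30 in GFP- cells. Within it, the 18 members from 5 to 10 Mb, these 2 genes among them, had medians of 0.21 and 0.01. The 6 members from 0 to 5 Mb had 1.55 and 1.16. Within AKVPSL, Osmr was lower in GFP+ cells, with a difference of -2.42 ± 0.34 (edgeR adjusted p = 3.85e-05).

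Ghr, the growth hormone receptor, is among the members from 0 to 5 Mb (3.3 Mb). It was at 32.4, 33.4, 32.2 and 28.5 CPM in AKVPL GFP+ against 108, 101, 101 and 93.97 in AKVPSL GFP+, and 26.8, 18.98, 23.7 and 25.6 against 71.6, 75.3, 47.7 and 60.02 in GFP- (1.68 ± 0.13 and 1.42 ± 0.13). Fzd6, a Wnt receptor at 39.0 Mb, was at 61.4, 53.6, 44.03 and 62.1 against 124, 121, 143 and 124 in GFP+, and 47.6, 36.1, 31.1 and 46.4 against 87.8, 89.2, 75.9 and 91.6 in GFP- (1.21 ± 0.13 and 1.10 ± 0.13). Foxa1, a pioneer transcription factor of gut epithelium on chromosome 12, was at 182, 214, 233 and 160.3 against 337, 325, 296 and 252 in GFP+, and 139, 131, 142 and 143 against 275, 279, 163 and 221 in GFP- (0.62 ± 0.15 and 0.76 ± 0.15). For all 3 the genotypes did not overlap within a sort.

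Ahr, the aryl hydrocarbon receptor on chromosome 12, was lower in AKVPSL: 199, 179.8, 153 and 185 against 89.6, 99.4, 149 and 109 CPM in GFP+, and 154, 148, 119.6 and 207 against 79.9, 101, 79.5 and 104 in GFP- (-0.68 ± 0.17 and -0.79 ± 0.17). Itga5, a subunit of the fibronectin receptor at the far end of chromosome 15 (103.3 Mb), was at 87.8, 98.8, 105 and 81.3 against 5.43, 7.97, 7.099 and 12.04 in GFP+, and 221, 229.6, 284 and 161 against 64.02, 50.3, 40.2 and 42.03 in GFP- (-3.53 ± 0.24 and -2.19 ± 0.22). It was also lower in GFP+ than in GFP- cells, with a difference of -1.26 ± 0.21 in AKVPL and -2.61 ± 0.23 in AKVPSL (edgeR adjusted p = 0.000207 and 8.16e-07). Fibroblasts express Itga5 too. The fibroblast sums above differ between the sorts and, in GFP- cells, between genotypes. In GFP+ cells the sums of the genotypes overlap (647 to 1317 CPM in AKVPL, 248 to 1189 in AKVPSL). The part of fibroblasts in the Itga5 values was not tested.

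Stromal and leukocyte genes of the members were mostly lower in AKVPSL cells. Of 28 listed genes 13 reached the level, with 2 higher and 8 lower in GFP+, and 3 higher and 9 lower in GFP-, and relative medians of -1.72 and -1.29. Over all genes tested, 28.1% and 30.7% were called lower in these comparisons, and among all members 11.3% and 13.9%. Between sorts, 2 were higher and 6 lower in GFP+ cells of AKVPL, and 2 and 11 in AKVPSL. There, 16.5% and 24.6% of all genes tested were called lower, and 12.1% and 23.4% of all members. The leukocyte sums above were lower in AKVPSL in both sorts and the fibroblast sums in GFP- cells, and their part in these values was not tested.

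Csf2rb, a receptor subunit for cytokines of myeloid cells, was at 166, 252, 245 and 129 CPM in AKVPL GFP- and 30.8, 38.6, 62.5 and 38.2 in AKVPSL GFP-, and at 11.9, 22.4, 38.6 and 13.5 against 1.44, 3.78, 5.53 and 7.36 in GFP+ (-2.22 ± 0.45 and -2.29 ± 0.48). It was lower in GFP+ cells, with a difference of -3.19 ± 0.46 in AKVPL and -3.26 ± 0.49 in AKVPSL (edgeR adjusted p = 0.000129 and 0.000149). Dcstamp, a fusion protein of osteoclasts and macrophages, was at 70.3, 90.7, 96.02 and 39.1 against 3.11, 5.35, 7.05 and 3.67 in GFP-, and 4.74, 5.94, 9.96 and 3.94 against 0.124, 0.335, 0.433 and 0.123 in GFP+. Pld4, a nuclease of myeloid cells on chromosome 12, was at 109.9, 174, 153 and 93.5 against 29.1, 28.6, 87.8 and 50.1 in GFP-, with a sort difference of -2.99 ± 0.50 in AKVPL and -3.41 ± 0.52 in AKVPSL (edgeR adjusted p = 0.000349 and 0.000174). The means of all 3 were highest in AKVPL GFP- and lowest in AKVPSL GFP+ cells.

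Ltbp2, Pxdn and Sdc2 are genes of the matrix and cell surface. Ltbp2, which binds elastic fibres, was at 103, 91.2, 158 and 84.03 CPM in AKVPL GFP- and 25.5, 15.3, 28.01 and 40.8 in AKVPSL GFP-, a difference of -1.99 ± 0.47, and in AKVPL it was lower in GFP+, with a difference of -3.36 ± 0.51 (edgeR adjusted p = 0.000168). Pxdn, a peroxidase that crosslinks collagen IV, was lower in GFP+ cells, with a difference of -3.51 ± 0.38 in AKVPL and -2.71 ± 0.38 in AKVPSL (edgeR adjusted p = 7.16e-06 and 6.43e-05). For Sdc2, a heparan sulphate proteoglycan of mesenchyme, the sort differences were -3.67 ± 0.44 and -2.78 ± 0.44 (edgeR adjusted p = 1.17e-05 and 0.000143). Lgals1, galectin 1, was higher in AKVPSL, at 123, 118, 118 and 126 against 283, 317, 243 and 309.9 CPM in GFP+ and 227, 247, 287 and 152 against 607, 545, 550.1 and 491 in GFP- (1.25 ± 0.14 and 1.26 ± 0.14), and lower in GFP+ than in GFP- cells, with a difference of -0.91 ± 0.14 and -0.93 ± 0.14 (edgeR adjusted p = 7.17e-05 and 5.85e-05).

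Members named for the size of their genotype difference lay far outside the chromosome shift. On chromosome 12, Flvcr2, a membrane transporter, was at 5.23, 3.86, 5.04 and 6.32 CPM in AKVPL GFP+ against 66.9, 63.7, 91.1 and 67.04 in AKVPSL GFP+ (3.83 ± 0.18), and 4.995, 5.52, 3.96 and 6.44 against 47.3, 39.99, 35.3 and 46.6 in GFP- (3.03 ± 0.17). Stxbp6, a syntaxin binding protein, was at 4.398, 4.79, 4.34 and 5.099 against 33.8, 36.00, 29.2 and 29.1 in GFP+, and 3.22, 3.68, 4.11 and 3.64 against 31.1, 39.2, 27.9 and 25.3 in GFP- (2.78 ± 0.14 and 3.08 ± 0.15). Gpx2, the gastrointestinal glutathione peroxidase, was at 108, 104, 82.2 and 99.9 against 294, 328, 223 and 270.4 in GFP+, and 47.2, 62.5, 60.4 and 45.3 against 391, 285, 397 and 296 in GFP- (1.501 with SE 0.15, and 2.67 ± 0.15). Six4, a homeobox factor, was at 2.82, 3.18, 4.92 and 4.21 against 17.00, 21.2, 27.5 and 22.3 in GFP+ (2.55 ± 0.20), with no overlap, while 10.2, 12.2, 13.4 and 10.6 and 10.7, 14.3, 10.9 and 15 overlapped in GFP-. Its sort difference was -1.63 ± 0.20 in AKVPL and 0.79 ± 0.18 in AKVPSL (edgeR adjusted p = 5.67e-06 and 0.00193), with opposite signs.

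On chromosome 15, Dhh, the desert hedgehog ligand, was at 1.897, 1.67, 1.72 and 1.94 CPM in AKVPL GFP+ against 27.3, 25.2, 22.4 and 20.1 in AKVPSL GFP+, and 1.38, 1.07, 1.55 and 0.932 against 60.8, 43.00, 36.9 and 41.7 in GFP-. Its differences were 3.72 ± 0.18 and 5.18 ± 0.19, and within AKVPSL it was lower in GFP+ cells, with a difference of -0.94 ± 0.15 (edgeR adjusted p = 9.46e-05). Faim2, an inhibitor of Fas-driven cell death, was at 136, 120.1, 115 and 120.2 against 609.7, 610.1, 700.0 and 604 in GFP+, and 45.2, 55.6, 40.1 and 44.05 against 519, 432, 543 and 532 in GFP- (2.36 ± 0.11 and 3.45 ± 0.12). In AKVPL it was higher in GFP+ cells by 1.41 ± 0.11 (edgeR adjusted p = 5.21e-08). Anxa13, an annexin of intestinal epithelium, was at 7.65, 8.905, 8.24 and 9.64 against 37.4, 40.1, 48.2 and 75.5 in GFP+, and 5.49, 4.27, 6.67 and 6.95 against 9.05, 11.7, 13.6 and 17.8 in GFP- (2.55 ± 0.23 and 1.17 ± 0.23).

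The members with the most negative differences had few counts left in AKVPSL. Apob, the structural protein of chylomicrons, was at 177, 186, 191 and 193 CPM in AKVPL GFP+ against 0.396, 0.201, 0.833 and 1.15 in AKVPSL GFP+, and 126, 76.05, 67.7 and 90.4 against 0.361, 0.0954, 0.177 and 0.403 in GFP- (-8.24 ± 0.34 and -8.35 ± 0.37). Adcy8, an adenylyl cyclase, was at 56.03, 56.6, 48.4 and 50.6 against 0.545, 0.636, 1 and 0.658 in GFP+, and 25.01, 21.6, 22.3 and 19.8 against 0, 0, 0.177 and 0.161 in GFP- (-6.22 ± 0.26 and -8.01 ± 0.34). These fitted values depend on the few counts left in AKVPSL libraries. Sema5a, a semaphorin, was at 99.8, 86.7, 67.4 and 90.3 against 4.04, 3.65, 4.899 and 5.34 in GFP+, and 42.98, 30.8, 38.05 and 49.9 against 1.25, 1.098, 1.197 and 2.66 in GFP- (-4.27 ± 0.23 and -4.69 ± 0.25). Both Adcy8 and Sema5a were higher in GFP+ cells of AKVPL, by 1.25 ± 0.19 and 1.09 ± 0.20 (edgeR adjusted p = 6.35e-05 and 0.000324), and of AKVPSL, by 3.04 ± 0.46 and 1.52 ± 0.25 (edgeR adjusted p = 5.17e-05 and 0.000125). These AKVPSL differences were 0.13 and 0.28 and did not pass when limma was run on log2(RPKM + 1).

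A pair of chromosome 12 genes of immune signalling were lower in AKVPSL as well. Cmpk2, an interferon-induced mitochondrial kinase, was at 37.8, 34.2, 38.4 and 37.1 CPM in AKVPL GFP+ against 1.56, 2.91, 3.57 and 2.06 in AKVPSL GFP+, and 27.03, 22.6, 21.7 and 29.3 against 2.33, 3.44, 4.39 and 3.15 in GFP- (-3.87 ± 0.22 and -2.92 ± 0.22). Pik3cg, a phosphoinositide kinase best known in leukocytes, was at 39.9, 32.96, 45.1 and 46.8 against 1.21, 1.54, 3.13 and 2.22 in GFP+, and 47.8, 48.9, 48.5 and 54.6 against 4.26, 4.01, 10.3 and 8.03 in GFP- (-4.36 ± 0.32 and -2.91 ± 0.29). In AKVPL its sort difference was -0.28 ± 0.26. In AKVPSL it was lower in GFP+, with a difference of -1.73 ± 0.31 (edgeR adjusted p = 0.000323). The leukocyte sums of the AKVPL libraries were 445 to 1236 CPM in GFP+ and 4578 to 7887 in GFP-. The part of leukocytes in the Pik3cg values was not tested.

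The comparison of GFP+ with GFP- cells was not used by the rule and showed no shift of either chromosome. Relative to the other autosomes, the median of chromosome 12 members was 0.01 in AKVPL and -0.01 in AKVPSL, and that of chromosome 15 members 0.00 and 0.02. In AKVPL, 114 of 386 chromosome 12 members were called higher and 50 lower in GFP+ cells, and 150 and 52 of 457 on chromosome 15, where 39.1% of all genes were called either way. In AKVPSL the counts were 107 higher and 89 lower, and 146 and 108, where 47.0% were called. On chromosome 12 the shares called were 42.5% and 50.8%, and on chromosome 15 44.2% and 55.6%. Of the 9867 other autosomal genes at this level, 31.1% were called higher and 12.6% lower in AKVPL, and 28.6% and 23.7% in AKVPSL. Directions depended on the scaling and on single libraries. With epithelial scaling AKVPL had 15 higher and 126 lower on chromosome 12, and 17 and 149 on chromosome 15. AKVPSL then had 49 and 122, and 73 and 143. With DESeq2 size factors the AKVPL counts were 74 and 57, and 97 and 66, and with library totals 82 and 56, and 102 and 64. On chromosome 15 in AKVPL the counts were 97 and 65 without AKVPSL GFP+ replicate 1, 100 and 63 without AKVPSL GFP- replicate 1, and 103 and 68 without AKVPSL GFP- replicate 4, libraries that enter through the shared fit and scaling. Without the same 3 libraries, chromosome 12 in AKVPL had 78 and 57, 80 and 58, and 81 and 58. In AKVPSL more members were then lower than higher: 80 and 106, 78 and 103, and 84 and 113 on chromosome 12, and 99 and 122, 114 and 121, and 116 and 130 on chromosome 15.

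Among members changed in the same direction in both genotypes, Enpp2, which makes lysophosphatidic acid, stood out with 259, 253, 210.5 and 235 CPM in AKVPL GFP+ against 84.4, 73.03, 72.2 and 52.6 in AKVPL GFP-, and 161, 152, 159 and 168 in AKVPSL GFP+ against 57.9, 83.8, 37.2 and 40.3 in AKVPSL GFP-. It was higher in GFP+ cells by 1.76 ± 0.20 and 1.55 ± 0.20 (edgeR adjusted p = 6.4e-06 and 2.26e-05), with no overlap between sorts. Anxa13 is not an example of a shared change, since its sort effect differed between genotypes (1.38 on the log2 scale). In AKVPSL it was higher in GFP+ cells by 1.95 ± 0.23 (edgeR adjusted p = 5.88e-06).

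Many single calls depended on the setting. Over all genes that the naming rule gives, 26 of 119 calls between genotypes in GFP+ cells and 32 of 129 in GFP- cells were lost or changed sign under 1 or more alternatives. Between sorts it was 40 of 80 in AKVPL and 35 of 104 in AKVPSL. Sign changes touched 6 genes of the GFP- genotype comparison and 10 of the AKVPL sort comparison, and 0 in the other 2.

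Growth genes with small differences were among these. Akt1, a kinase of growth signalling on chromosome 12, differed by 0.34 ± 0.10 in GFP+ and 0.34 ± 0.10 in GFP-, which became 0.21 and -0.01 with epithelial scaling and did not pass. Hif1a, the oxygen-sensing factor, differed by 0.31 ± 0.11 in GFP- cells and by -0.05 with that scaling, and its GFP+ difference was 0.87 ± 0.11. Odc1, the first enzyme of polyamine synthesis, differed by 0.55 ± 0.18 and 0.53 ± 0.18, and its calls ended without AKVPL GFP+ replicate 4 (0.41) and, in GFP- cells, without AKVPSL GFP- replicate 3 (0.43) or with epithelial scaling (0.18). Rictor, a subunit of the TORC2 kinase, differed by 0.73 ± 0.18 in GFP+ and 0.45 ± 0.18 in GFP-, and the second was 0.10 with epithelial scaling. Espl1, the separase that opens cohesin, differed by 0.49 ± 0.16 and 0.71 ± 0.16, which were 0.35 and 0.37 and did not pass with that scaling. Id2, an inhibitor of helix-loop-helix factors, differed by -0.31 ± 0.12 in GFP+ cells, a call lost when any AKVPSL GFP+ library was left out.

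The same held for epithelial genes. Grhl2, a factor of epithelial identity, differed by 0.39 ± 0.09 in GFP+ and 0.28 ± 0.09 in GFP-, which became 0.26 and -0.07 with epithelial scaling and did not pass. Ly6e differed by 0.27 ± 0.10 in GFP+ and 0.84 ± 0.10 in GFP-, of which the first was 0.14 and not called with that scaling. Krt8, the partner of Krt18, differed by -0.32 ± 0.13 in GFP+ cells, and the call was lost with the replicate block and when any AKVPSL GFP+ library was left out. Plec, a linker of keratin filaments, differed by -0.74 ± 0.17 and -0.48 ± 0.17, and the second was -0.34 and not called without AKVPSL GFP- replicate 3. Enpp2 differed by -0.58 ± 0.20 in GFP+ cells, and the call ended without AKVPSL GFP+ replicate 2 (-0.55).

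Small sort differences were the least stable. In AKVPL, Myc was higher in GFP+ cells by 0.39 ± 0.14, Ncaph2 by 0.32 ± 0.09 and Eif3l by 0.29 ± 0.09 (edgeR adjusted p = 0.0299, 0.0112 and 0.0128), and with epithelial scaling these were -0.01, -0.06 and -0.10. Ghr (0.41 ± 0.13), Fzd6 (0.46 ± 0.13), Foxa1 (0.51 ± 0.15), Grhl2 (0.65 ± 0.09) and Ly6e (0.50 ± 0.10) lost their AKVPL calls with that scaling, at 0.01, 0.08, 0.10, 0.26 and 0.12. Apob (1.05 ± 0.23), Cmpk2 (0.55 ± 0.19) and Dhh (0.52 ± 0.20) did so too, at 0.66, 0.16 and 0.13. In AKVPSL, Wars (0.39 ± 0.09), Racgap1 (0.48 ± 0.14), Gtse1 (0.46 ± 0.18), Eif4b (0.36 ± 0.12), Faim2 (0.32 ± 0.10), Fzd6 (0.57 ± 0.13), Foxa1 (0.37 ± 0.15) and Rictor (0.47 ± 0.18) lost theirs, at 0.22, 0.31, 0.28, 0.21, 0.15, 0.40, 0.18 and 0.30. Nfkbia, the inhibitor of NF-kappaB, was lower in GFP+ cells of AKVPL, with a difference of -0.65 ± 0.22 (edgeR adjusted p = 0.0303), and the call was lost without AKVPL GFP+ replicate 1 or 4, or AKVPL GFP- replicate 2 or 3 (-0.48 to -0.61). Id2 in AKVPL (-0.37 ± 0.12) and Ltbp2 in AKVPSL (-1.31 ± 0.48) lost their calls too. Id2 did so without AKVPL GFP+ replicate 1, 2 or 3, or AKVPL GFP- replicate 2 or 3 (-0.27 to -0.36), and Ltbp2 without AKVPSL GFP+ replicate 2 or 3, or AKVPSL GFP- replicate 3 or 4 (-1.12 to -1.34).

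The sort effect itself differed between genotypes for 34 members called higher and 78 lower on chromosome 12, and 43 and 85 on chromosome 15, where 7.01% of all genes were called higher and 13.7% lower. These counts are built from the comparisons the rule used and are given as a description. Their split turned with epithelial scaling, to 55 higher and 23 lower, and 70 and 26. With DESeq2 size factors it was 45 and 52, and 56 and 60.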

How the data were processed

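RNA was sequenced from 16 libraries of sorted mouse tumour cells. The deposited count of each gene is, per the file headers, the number of reads aligned uniquely to its gene model, and the deposited RPKM values are adjusted by size factors, per the file headers. The submitters' processing notes name GSNAP and GRCm38. The sources used here do not say whether counting used strand, so overlapping antisense genes cannot be told apart.

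Counts were tested with edgeR 4.0.16 (R 4.3.3, limma 3.58.1, filterByExpr, TMM scaling, quasi-likelihood test, 4 groups in 1 fit with 12 residual degrees of freedom) over 18072 genes, with Benjamini-Hochberg adjustment and a threshold of 0.05. SEs were derived from the F statistics. CPM values are TMM-scaled, except that the level of 8 CPM uses library totals. Positions came from the RefSeq table, which matched 31049 identifiers (85.0%). A further 245 identifiers at 8 CPM or more had no match. The procedure was checked on simulated data. Replicates of a group were compared in 24 pairs and all differed beyond sampling noise.

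Members and lists were chosen with earlier results of these data known. Named genes were those in 6 lists by role, the 3 largest and 3 smallest genotype and sort differences per chromosome with no overlap of libraries, and the members beside each split. The text prints a subset of them, picked with their values known, and 1 gene of the growth list is not reported here. Same-numbered GFP+ and GFP- libraries of a genotype had deviations correlated at 0.149 to 0.485 (AKVPL) and 0.105 to 0.589 (AKVPSL). These numbers were taken to pair the sorts in the replicate block alone. AKVPSL replicates 3 and 4 correlated better with another number (0.105 against 0.586, and 0.342 against 0.498). The main fit, which gave the printed SEs and p-values, treated all libraries as unpaired. Between genotypes the correlations ran from -0.159 to 0.423, and the main fit assumed no pairing. For the genotype comparisons the replicate block did tie same-numbered libraries of the 2 genotypes, which these correlations do not bear out for every number. Alternatives were DESeq2 1.42.0 (size factors and Wald test), library totals, epithelial scaling, no filter, RPKM with limma on log2(RPKM + 1), a replicate block, other references, windows and split rules, and each library left out in turn.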

Additional observations from a re-analysis of the deposited data

Results flagged for a closer look

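Of 268 groups of 4 libraries checked, 18 held a library far from the other 3 by Dixon's criterion, where chance gives about 1 in 20. The library stood above the others for Max in AKVPSL GFP- replicate 3 (121 CPM), Akt1 in AKVPSL GFP+ replicate 1 (445 CPM), Flvcr2 in AKVPSL GFP+ replicate 3 (91.1 CPM), Nfkbia in AKVPSL GFP+ replicate 2 (190.3 CPM), Ncaph2 in AKVPSL GFP+ replicate 1 (235 CPM), Faim2 in AKVPSL GFP+ replicate 3 (700.0 CPM), Ly6c1 in AKVPL GFP- replicate 2 (20.4 CPM), Sema5a in AKVPSL GFP- replicate 4 (2.66 CPM), Plec in AKVPSL GFP+ replicate 3 (396 CPM) and Sdc2 in AKVPL GFP+ replicate 3 (2.73 CPM). It stood below them for Wars in AKVPSL GFP+ replicate 2 (417 CPM), Rad21 in AKVPSL GFP+ replicate 4 (423 CPM), Racgap1 in AKVPL GFP+ replicate 3 (49.9 CPM), Espl1 in AKVPSL GFP+ replicate 4 (56 CPM), Ly6e in AKVPL GFP- replicate 4 (1222 CPM), Osmr in AKVPL GFP+ replicate 4 (22.4 CPM) and Sdc2 in AKVPSL GFP- replicate 2 (5.34 CPM). The chromosome 12 median of AKVPSL GFP+ replicate 3 (0.392) also stood above the other 3 libraries.

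For 26 named genes the sort effect differed between genotypes by edgeR's test of that difference, given here as log2 values because the comparison shares its libraries with those that chose the chromosomes. GFP+ against GFP- was more positive in AKVPSL for Hif1a (0.56), Sel1l (1.07), Flvcr2 (0.80), Six4 (2.42), Ltbp2 (2.05), Adcy8 (1.79) and Anxa13 (1.38). It was more negative in AKVPSL for Eif2s1 (-0.64), Psma6 (-0.51), Psmc1 (-0.62), Gpx2 (-1.17), Mycn (-1.18), Cmpk2 (-0.95), Pik3cg (-1.45), Racgap1 (-0.86), Gtse1 (-0.84), Dhh (-1.46), Faim2 (-1.09), Ly6a (-1.77), Ly6c1 (-1.50), Ly6d (-1.14), Ly6e (-0.57), Krt7 (-0.97), Krt18 (-0.46), Osmr (-2.36) and Itga5 (-1.34).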

How the results depend on the processing

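The relative medians of AKVPSL against AKVPL stayed above 0 on both chromosomes and in both sorts under every alternative run. Without single libraries they ranged from 0.351 to 0.371 (GFP+) and 0.36 to 0.4 (GFP-) on chromosome 12, and from 0.399 to 0.415 and 0.353 to 0.394 on chromosome 15. Deposited RPKM gave 0.328 on chromosome 12 in GFP+, and 0.382 (GFP+) and 0.332 (GFP-) on chromosome 15. A reference without chromosomes 5 and 18 gave 0.415 and 0.423 on chromosome 12, and 0.461 and 0.418 on chromosome 15. A reference without chromosomes 5, 6, 8, 18 and 19, chosen after seeing the data, gave 0.468, 0.476, 0.515 and 0.470 in that order. Members with a small sort difference had a chromosome 12 median of 0.418 in GFP-, with 162 and 181 called on chromosome 12 and 198 and 211 on chromosome 15, from fewer members. Means in place of medians gave 0.337 on chromosome 15 in GFP+ and 0.03 for the chromosome 12 sort difference in AKVPSL. Least squares moved the splits to 36.0 and 16.7 Mb on chromosome 12 and to 34.1 Mb in both sorts on chromosome 15, and the cause was not tested. In 20 Mb windows, 100% of chromosome 15 medians in GFP- were above 0, and in 5 Mb windows 94.4%. With the replicate block, 270 and 291 members of chromosome 12 and 343 and 356 of chromosome 15 were called between genotypes, and 191, 216, 227 and 278 between sorts. The block moved no count of calls by more than 1.5 times, and of the printed genes it ended the call of Krt8 in GFP+ alone (-0.32). Of 192 pairs of a printed gene and a comparison, 44 lost a call under 1 or more settings. Of 4416 alternative values, 4202 kept direction and call, 208 lost the call and 6 changed sign. The 6 were all with epithelial scaling: Akt1 (-0.008), Hif1a (-0.049) and Grhl2 (-0.068) between genotypes in GFP-, and Myc (-0.014), Ncaph2 (-0.062) and Eif3l (-0.098) between sorts in AKVPL. The share of higher calls between sorts in AKVPL was 69.5% on chromosome 12 and 74.3% on chromosome 15, and with other scalings ran from 10.6% and 10.2% (epithelial) to 59.4% and 61.4% (library totals). Depth of 10881115 to 41601600 counts limits genes near 1 CPM, such as Apob and Adcy8 in AKVPSL.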
